A study of Homo sapiens with 12 samples.

Results

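The genes described here encode the subunits of the mitochondrial respiratory chain and ATP synthase and the factors that assemble them. They were chosen by name, as rows whose symbol begins with NDUF, UQCR, COX and a digit, ATP5, SDHA to SDHD or MT-, or is CYC1 or CYCS, leaving out pseudogenes and antisense genes. The rule found 38 of the 1676 genes of the deposited table, and these are 38 of the 127 protein-coding genes of the GENCODE 29 annotation whose names match it. Complex I gave 17 genes, complex II 2, complex III 3, complex IV 8, complex V (ATP synthase) 4, and assembly factors 4. NDUFA4 carries a complex I name but is a known subunit of complex IV and was counted there. The nuclear genome encodes 35 of them and the mitochondrial genome 3, of 13 mitochondrial protein-coding genes. CYCS, the gene of the electron carrier cytochrome c, was not among them.

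The respiratory chain sits in the inner mitochondrial membrane. Complexes I and II take electrons from NADH and succinate, complex III passes them to cytochrome c, and complex IV hands them to oxygen. Complexes I, III and IV pump protons, and complex V lets the protons return and makes ATP, on which neurons depend heavily. Complexes I, III, IV and V are built from subunits of both genomes, complex II from nuclear subunits only.

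RNA was measured in SH-SY5Y cells, a human neuroblastoma line from a bone metastasis, 24 h after transfection with a construct of the microtubule-binding protein tau. The constructs were wild-type tau (Tau-WT, the reference), Tau-K174Q, with a glutamine that mimics an acetylated lysine, Tau-S199E, with a glutamate that mimics a phosphorylated serine, and Tau-K174Q-S199E with both (the double construct). Each construct has 3 libraries, for a total of 12. Every library took 400 ng of RNA into a kit that primes at the poly(A) tail and reads near the 3′ end, and all 4 groups received a tau construct. The sources used here do not give the vector, its promoter or the share of cells transfected. They also do not say whether the libraries of a construct are separate cultures, and p-values then cover the spread among these libraries alone, which may be technical.

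Every gene was standardised by the authors to mean 0 and SD 1 over the 12 libraries, so values and differences are in SD units of each gene. They can rank libraries, but not genes by level or by size of change. The depth is unknown. The table lists selected genes: each has a deposited adjusted p below 0.05 for a contrast that the header does not name, and the sign of the deposited log2 fold change was opposite to that of Tau-S199E minus Tau-WT in 1676 of 1676 genes. The deposited sign equalled that of Tau-K174Q minus Tau-WT in 1 gene of 1676. It equalled that of the double construct minus Tau-S199E in 1672 and minus Tau-K174Q in 1613. For the double construct minus Tau-WT the number was 134, and for Tau-S199E minus Tau-K174Q it was 260. Counts of calls and directions in these comparisons are therefore tied to how the table was selected. So are those of Tau-S199E against Tau-WT and of the interaction of the substitutions. All are read against the same count over the whole table. Nothing is said of genes outside it. None of 13 adrenergic neuroblastoma markers and none of 10 markers of other cell types was in the table, so the labelled cell type could not be checked. Tau-S199E library 12 stood apart, with an SD of 1.67 over all genes, against 0.83 and 0.77 in libraries 10 and 11.

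With Tau-S199E, 28 of the 38 genes rose and 8 fell against Tau-WT (limma, Benjamini-Hochberg adjusted p below 0.05 over all 1676 genes). That is 36 of 38 called, where the whole table had 90.0%. The same counts passed an unadjusted p under 0.05, against 91.3% of the table (49.0% higher and 42.3% lower). Upward calls were 73.7% of these genes and 48.3% of the table, and downward calls were 21.1% against 41.8%. The median difference was 2.15 SD units over the 38 genes and 1.41 over the table. These medians are of signed differences and vary with the share of genes above 0, which was 73.7% and 52.9%. They do not compare the size of the differences, nor do the medians of the other comparisons below. The split differed between classes of genes. All nuclear subunits of complexes II to V rose, 15 of 15, whereas complex I was mixed, with 10 genes that rose and 5 that fell. Of the 4 assembly factors of the name rule, 1 rose and 3 fell. Of 11 assembly factors in the table outside the rule, 8 rose and 1 fell, so the direction of the 4 does not hold for assembly factors in general. In bulk RNA, a change in the number of cells that express a gene and a change in RNA per cell cannot be told apart.

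**Figure D1:**
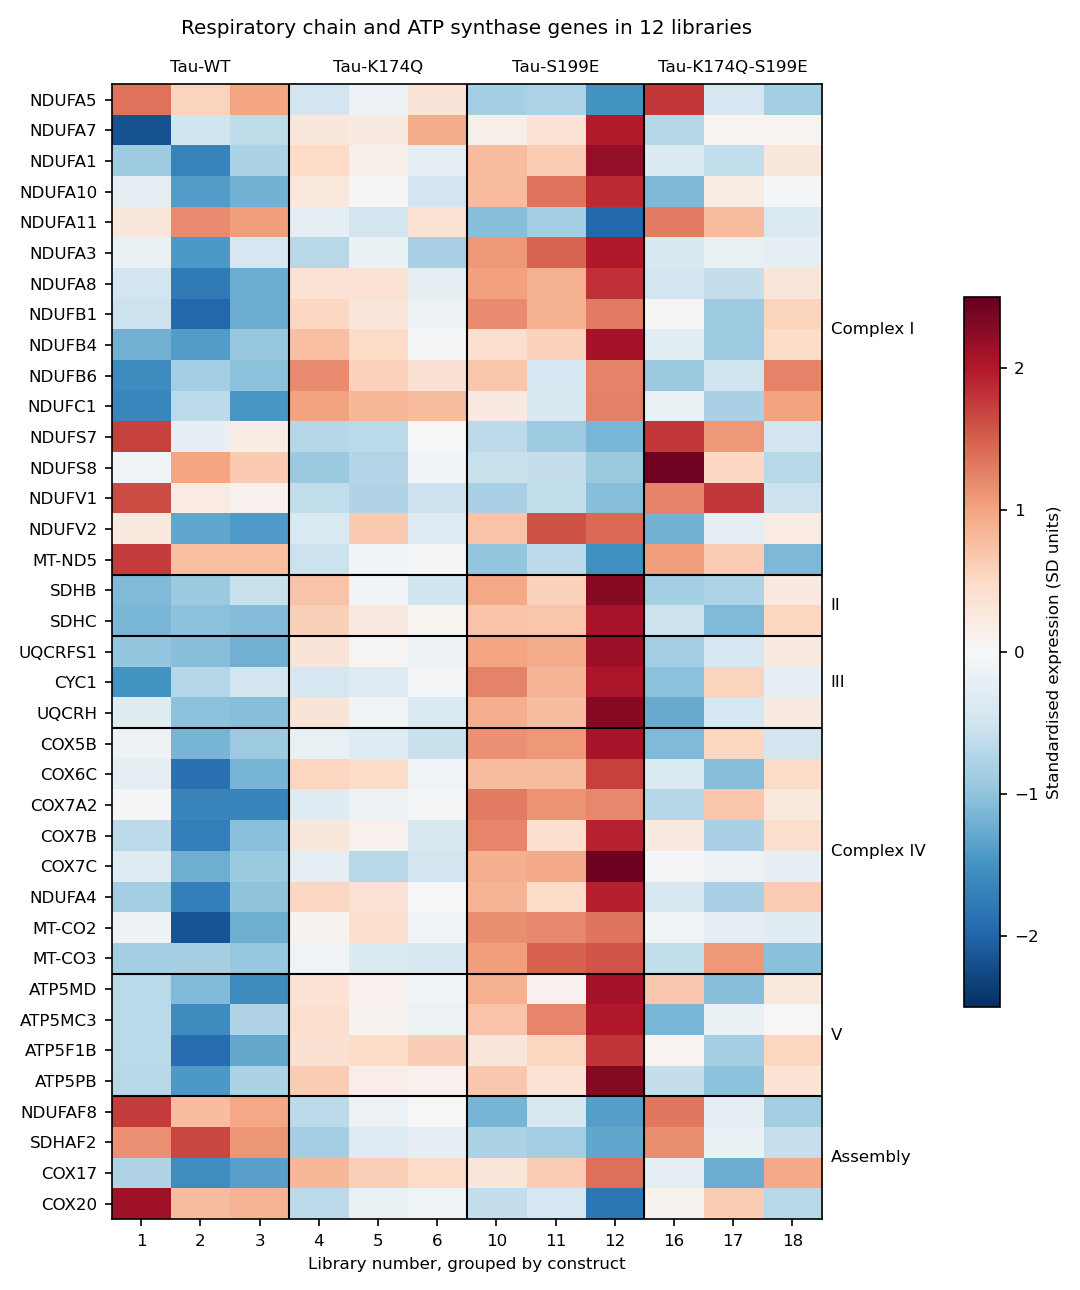
Standardised expression (SD units, colour) of 37 of the 38 genes (rows, grouped by complex) in the 12 libraries (columns, grouped by construct). Tau-WT libraries are mostly blue and Tau-S199E libraries mostly red in complexes II to V, with the reverse colours in NDUFA5, NDUFA11, NDUFS7, NDUFS8, NDUFV1, MT-ND5, NDUFAF8, SDHAF2 and COX20.

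The libraries of Tau-S199E and Tau-WT did not overlap in any of the 38 genes, 28 higher and 10 lower, against 94.2% of the table (50.5% higher and 43.7% lower). Among all 1676 genes, 52.9% of differences were above 0 and 47.1% below. With 3 libraries against 3, an exact two-sided permutation test of a single gene cannot give a p below 0.1, which all 38 reached. Differences ran from -2.30 SD units in SDHAF2 to 2.43 in UQCRFS1, and adjusted p among called genes (limma) from 0.00968 to 0.0483. At an adjusted p below 0.01, 9 were called (8 higher and 1 lower), against 11.3% of the table (6.86% higher and 4.47% lower). Library 12 was the highest of the Tau-S199E libraries in 26 of the 28 genes that were higher with Tau-S199E and the lowest in 10 of the 10 that were lower. It was the highest in 782 of 886 and the lowest in 651 of 790 such genes of the whole table. Without library 12 and Tau-K174Q-S199E library 18, a setting chosen after seeing the data, 34 of the 38 were called, 27 higher and 7 lower, against 79.4% of the table (43.8% higher and 35.6% lower).

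**Figure D2:**
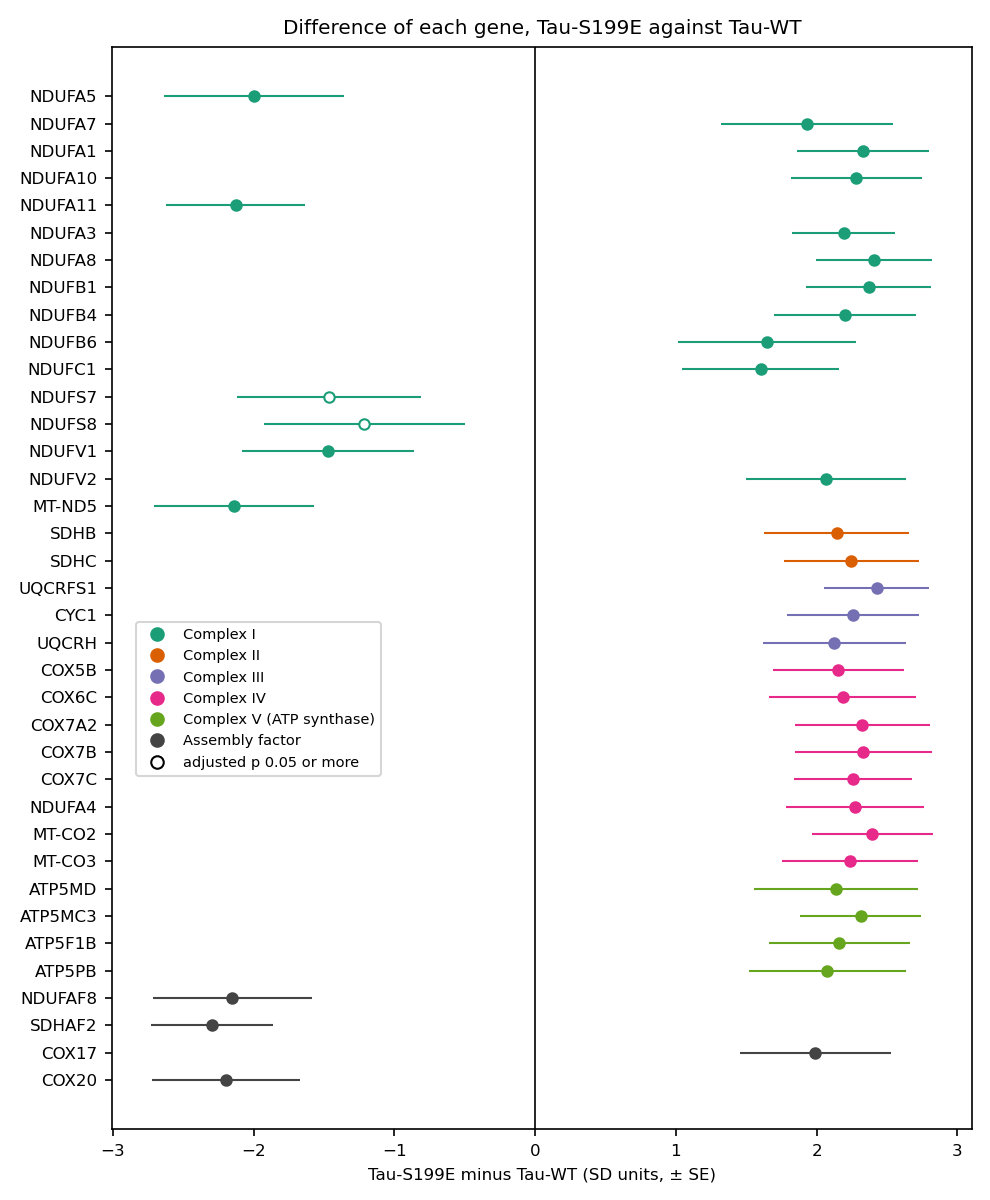
Difference of 37 of the 38 genes between Tau-S199E and Tau-WT (horizontal axis, SD units, mean of 3 libraries minus mean of 3, bars ± SE of the limma fit), coloured by complex. Open circles mark NDUFS7 and NDUFS8, whose adjusted p was 0.0603 and 0.129. All points of complexes II, III, IV and V lie between 2.08 and 2.43.

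Promoter sequence was compared because nuclear genes of several complexes moved together. RefSeq promoter windows (GRCh38.p14, 250 bases before to 50 after the start, the first listed window of each gene) were matched for 29 of 35 nuclear genes, 27 by symbol and 2 by an older symbol. The last 30 bases of the window were found in a GENCODE transcript of the gene for 27 of the 29. The exceptions were NDUFA3, and NDUFA5, whose window starts 43396 bases before the annotated gene, and neither held any of the letters searched below. SDHC, CYC1, COX6C, ATP5MC3 and ATP5F1B were among those not matched. The core of the NRF1 site, GCGCATGCG on either strand, was present in 4 of 29 windows (13.8%): NDUFA8, NDUFB4 and COX17, which rose with Tau-S199E, and NDUFS7, whose difference was -1.46 SD units (adjusted p 0.0603). It was present in 2.1% of 27305 windows of all genes and in 4.99% of 1282 windows of the deposited table. The ETS core CCGGAAG on either strand was in 7 of 29 (24.1%), against 10.7% of all windows and 22.4% of those of the table. The YY1 letters AAGATGGCG were in 3 of 29 (10.3%; NDUFA7, SDHB and NDUFS7), against 1.85% and 5.3%. The ERRA letters TCAAGGTCA were in 0 of 29, against 0.359% and 0.156%. By direction, NRF1 letters stood in 3 of 21 windows of genes that were higher with Tau-S199E and in 1 of 8 of those that were lower, and ETS letters in 6 of 21 and 1 of 8. A match is a string of letters, not evidence of binding.

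The 250 bases upstream of the start are shown for 2 nuclear genes that rose and 2 that were lower, 5′ to 3′ on the strand of the gene. Capitals mark the NRF1 or ETS letters. The NRF1 letters can be seen on both sides of the split. ETS letters appear here only in SDHAF2, which was lower, although 6 of the 7 genes with ETS letters were higher with Tau-S199E. The 10-base runs in NDUFB4 and COX17 hold the NRF1 core on both strands, overlapping, and begin 159 and 116 bases upstream of the start. The single match in NDUFS7 begins 74 bases upstream, and the 4 ETS matches in SDHAF2 begin 250, 102, 78 and 20 bases upstream, with CTTCCGG the reverse strand of CCGGAAG. The windows are at chr3:120596086-120596335 (plus strand) for NDUFB4, chr3:119677407-119677656 (minus) for COX17, chr19:1383657-1383906 (plus) for NDUFS7 and chr11:61429874-61430123 (plus) for SDHAF2.
NDUFB4: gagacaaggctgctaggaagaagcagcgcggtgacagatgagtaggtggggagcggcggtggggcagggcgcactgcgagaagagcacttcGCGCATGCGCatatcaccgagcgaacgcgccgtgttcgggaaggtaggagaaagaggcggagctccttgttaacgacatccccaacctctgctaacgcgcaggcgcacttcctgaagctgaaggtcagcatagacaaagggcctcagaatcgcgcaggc
COX17: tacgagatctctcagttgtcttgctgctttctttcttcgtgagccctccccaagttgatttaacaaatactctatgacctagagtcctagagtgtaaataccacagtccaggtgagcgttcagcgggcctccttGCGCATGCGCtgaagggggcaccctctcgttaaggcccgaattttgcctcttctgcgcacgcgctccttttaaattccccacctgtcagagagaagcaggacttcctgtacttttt
NDUFS7: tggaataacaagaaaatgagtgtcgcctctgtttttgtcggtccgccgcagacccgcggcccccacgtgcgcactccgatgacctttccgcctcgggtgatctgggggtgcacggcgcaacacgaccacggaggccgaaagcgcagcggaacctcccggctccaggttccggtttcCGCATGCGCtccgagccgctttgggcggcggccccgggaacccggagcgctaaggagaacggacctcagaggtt
SDHAF2: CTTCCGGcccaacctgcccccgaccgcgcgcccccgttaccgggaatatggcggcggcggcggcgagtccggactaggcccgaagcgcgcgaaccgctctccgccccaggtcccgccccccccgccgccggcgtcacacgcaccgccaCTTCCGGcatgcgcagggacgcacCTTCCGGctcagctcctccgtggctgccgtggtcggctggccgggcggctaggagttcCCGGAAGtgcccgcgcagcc

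Complex I oxidises NADH in a matrix arm and pumps protons in a membrane arm. Of its 5 nuclear core subunits in the table, which carry the electrons in the matrix arm, 4 were lower with Tau-S199E and 1 was higher. NDUFV1 (ENSG00000167792, chr11:67605653-67612554, plus strand), the subunit at which NADH is oxidised, stood at 1.63, 0.20 and 0.10 SD units in the Tau-WT libraries and at -0.81, -0.61 and -1.07 with Tau-S199E. It was -0.61, -0.76 and -0.51 with Tau-K174Q, while it was 1.23, 1.76 and -0.54 with Tau-K174Q-S199E. Both single constructs were thus below every Tau-WT library, while the double construct had 2 libraries at the top of the range and 1 at the level of the single constructs. Tau-S199E differed from Tau-WT by -1.47 ± 0.61 (SE; limma, adjusted p 0.0483). This call was lost without any one of the 6 libraries (adjusted p 0.0537 to 0.154).

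NDUFS7 (chr19:1383527-1395589, plus strand), an iron-sulfur subunit next to the quinone site, was 1.71, -0.21 and 0.19 with Tau-WT, -0.65, -0.91 and -1.14 with Tau-S199E, -0.72, -0.66 and 0.02 with Tau-K174Q, while it was 1.77, 1.07 and -0.48 with the double construct. NDUFS8 (chr11:68030617-68036644, plus strand), another iron-sulfur subunit, was -0.10, 0.99 and 0.66, then -0.56, -0.59 and -0.93, then -0.93, -0.73 and -0.07, and then 2.43, 0.51 and -0.69 in the same order of constructs. In both genes all 3 Tau-S199E libraries were below all 3 Tau-WT libraries, and library 16 of the double construct was the highest of the 12. Their differences from Tau-WT were -1.46 (adjusted p 0.0603) and -1.21 (0.129), and both passed with limma's moderated variance (0.00999 and 0.0315). That setting called 98.4% of the table in this comparison, so passing it sets these 2 genes apart from few others.

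NDUFV2, the iron-sulfur partner of NDUFV1, went the other way: it was 0.25, -1.31 and -1.42 with Tau-WT and 0.71, 1.59 and 1.42 with Tau-S199E. The increase was 2.06 ± 0.57 (SE; limma, adjusted p 0.0147). NDUFV1 and NDUFV2 together form the tip of the matrix arm, so subunits of the same module differed in direction. Over the 5 core genes the library means ran from -0.0028 to 1.11 with Tau-WT and from -0.62 to -0.18 with Tau-S199E, a summary in which NDUFV2 offsets the others.

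**Figure D3:**
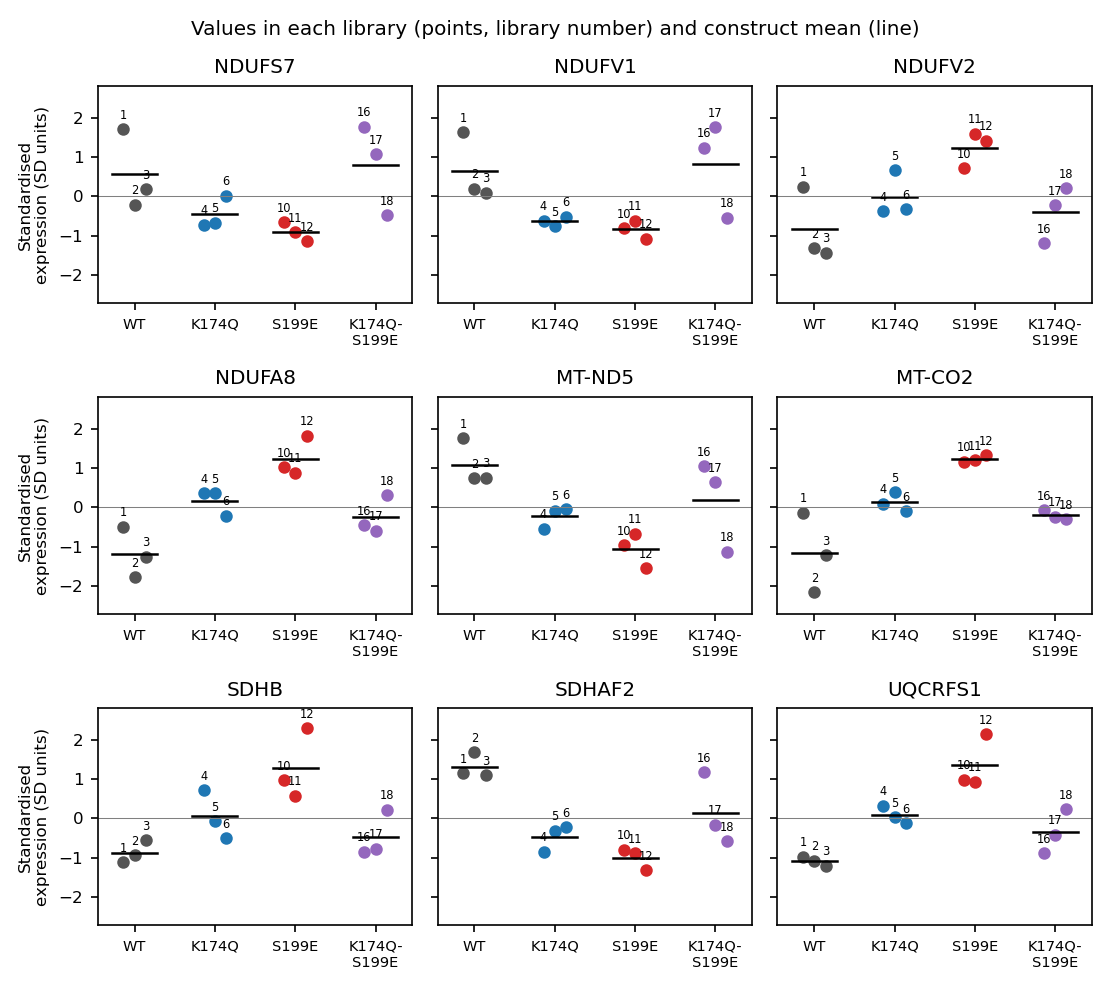
Standardised expression (SD units) of 9 genes in each library (points, with library number) by construct, with lines at the construct means. NDUFS7, NDUFV1, MT-ND5 and SDHAF2 are lower with Tau-S199E than with Tau-WT, and NDUFV2, NDUFA8, MT-CO2, SDHB and UQCRFS1 are higher.

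The accessory subunits of complex I, which surround the core and are needed for its assembly and stability, rose in 9 of 11 cases and fell in 2. In the membrane arm 8 of 9 rose. NDUFA8 (chr9:122144058-122159819, minus strand), on the intermembrane side of that arm, was -0.49, -1.77 and -1.25 with Tau-WT, 0.37, 0.36 and -0.21 with Tau-K174Q, 1.02, 0.88 and 1.82 with Tau-S199E, while it was -0.45, -0.59 and 0.30 with the double construct. Its 3 Tau-S199E libraries were the highest of the 12, at 2.41 ± 0.41 above Tau-WT (SE; limma, adjusted p 0.00968). NDUFB1 was -0.54, -1.96 and -1.25 with Tau-WT, 0.52, 0.30 and -0.13 with Tau-K174Q, 1.18, 0.88 and 1.29 with Tau-S199E, while it was 0.03, -0.88 and 0.55 with the double construct. It showed the same order of constructs, with a difference of 2.37 (0.00968). The other rising genes of the membrane arm, NDUFA1, NDUFA3, NDUFA10, NDUFB4, NDUFB6 and NDUFC1, differed by 1.60 to 2.33. The lowest of these, NDUFC1 and NDUFB6 (1.65), had adjusted p of 0.0272 and 0.0372, and both calls were lost with the 6 libraries alone (0.0598 and 0.0519). The call of NDUFC1 was also lost without any one of libraries 1, 3, 10 and 12 (0.0501 to 0.0908), and that of NDUFB6 without any one of 1, 2, 3, 10 and 12 (0.0627 to 0.12).

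NDUFA11 (chr19:5891276-5904006, minus strand), a membrane-arm accessory subunit, was the exception there. It was 0.29, 1.18 and 1.04 with Tau-WT, -0.23, -0.46 and 0.37 with Tau-K174Q, -1.06, -0.85 and -1.96 with Tau-S199E, while it was 1.27, 0.78 and -0.37 with the double construct. The Tau-S199E libraries were the 3 lowest, a fall of 2.13 SD units (limma, adjusted p 0.0104). In the matrix arm NDUFA7 rose by 1.93 (0.0209) and NDUFA5 (chr7:123536997-123558255, minus strand) fell. NDUFA5 was 1.37, 0.55 and 0.99 with Tau-WT, -0.48, -0.15 and 0.31 with Tau-K174Q, -0.82, -0.77 and -1.50 with Tau-S199E, while it was 1.76, -0.43 and -0.85 with the double construct, in which libraries 16 and 18 lay near opposite ends of the range. Its difference was -1.997 (0.0217), and the calls of both genes were lost without library 12 (0.0709 for NDUFA5, 0.0641 for NDUFA7) or Tau-WT library 1 (0.0594 and 0.0576). That of NDUFA7 was also lost with the 6 libraries alone (0.0804) and without libraries 12 and 18 (0.065).

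Complex II, the succinate dehydrogenase that also works in the citric acid cycle, had 2 of its subunits in the table and both rose. SDHB (chr1:17018722-17054170, minus strand), the iron-sulfur subunit, was -1.11, -0.93 and -0.56 with Tau-WT and 0.97, 0.58 and 2.28 with Tau-S199E. It was 0.71, -0.07 and -0.49 with Tau-K174Q and -0.84, -0.77 and 0.22 with the double construct, both between the other constructs on average. SDHC (chr1:161314257-161375340, plus strand), a membrane anchor, was -1.14, -1.03 and -1.09 with Tau-WT, close together, and 0.71, 0.70 and 2.07 with Tau-S199E. With Tau-K174Q it was 0.59, 0.22 and 0.07, all above Tau-WT, and with the double construct -0.53, -1.10 and 0.53. Against Tau-WT, Tau-S199E was higher by 2.14 ± 0.52 for SDHB and 2.25 ± 0.48 for SDHC (SE; limma, adjusted p 0.011 and 0.01).

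All 3 genes of complex III rose with Tau-S199E. UQCRFS1 (chr19:29205321-29213541, minus strand), the Rieske iron-sulfur protein, had the largest difference of the 38 genes in units of its own SD. It was -0.97, -1.07 and -1.19 with Tau-WT, 0.33, 0.04 and -0.12 with Tau-K174Q, 0.98, 0.94 and 2.13 with Tau-S199E, while it was -0.88, -0.42 and 0.23 with the double construct. No library of another construct reached the Tau-S199E libraries, and the difference from Tau-WT was 2.43 ± 0.37 (SE; limma, adjusted p 0.00968). CYC1, the cytochrome that reduces cytochrome c, was -1.49, -0.71 and -0.45 with Tau-WT, -0.41, -0.32 and -0.05 with Tau-K174Q, 1.23, 0.86 and 2.04 with Tau-S199E, while it was -1.03, 0.55 and -0.22 with the double construct. UQCRH, the hinge protein, was -0.30, -1.03 and -1.06, then 0.32, -0.09 and -0.34, then 0.91, 0.78 and 2.28, and then -1.27, -0.43 and 0.23 in the same order. The Tau-S199E libraries were the 3 highest for both, by 2.26 (0.01) and 2.12 (0.0109) over Tau-WT.

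Complex IV, cytochrome c oxidase, had 8 genes in the table, 6 nuclear and 2 mitochondrial, and all 8 rose, by 2.15 to 2.40. NDUFA4 (chr7:10931951-10940256, minus strand) was -0.87, -1.71 and -0.998 with Tau-WT, 0.53, 0.37 and 0.01 with Tau-K174Q, 0.84, 0.46 and 1.95 with Tau-S199E, while it was -0.40, -0.81 and 0.64 with the double construct. All 9 libraries with a substitution were above all 3 Tau-WT libraries, and the difference of Tau-S199E was 2.27 (limma, adjusted p 0.01). COX6C, an accessory subunit, was -0.25, -1.86 and -1.16 with Tau-WT, 0.53, 0.46 and -0.07 with Tau-K174Q, 0.79, 0.79 and 1.70 with Tau-S199E, while it was -0.35, -1.05 and 0.48 with the double construct, where libraries 16 and 17 fell within the range of Tau-WT. Its difference was 2.18 (0.0109). The accessory subunits COX5B, COX7A2, COX7B and COX7C rose by 2.15 to 2.33, and library 12 was the highest Tau-S199E library in COX5B, COX7B and COX7C but not in COX7A2 (1.30, 1.13 and 1.198 in libraries 10 to 12).

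Of the mitochondrially encoded genes, which are transcribed together from 1 circular genome and cut apart, 2 rose and 1 fell. MT-CO2 (chrM:7586-8269), the subunit that takes electrons from cytochrome c, was -0.13, -2.15 and -1.22 with Tau-WT, 0.10, 0.39 and -0.09 with Tau-K174Q, 1.16, 1.203 and 1.33 with Tau-S199E, while it was -0.06, -0.23 and -0.30 with the double construct. MT-CO3 (chrM:9207-9990), a core subunit, was -0.85, -0.83 and -0.96, then -0.08, -0.36 and -0.41, then 1.04, 1.48 and 1.56, and then -0.62, 1.08 and -1.05 in that order. Libraries 10, 11 and 12 had an SD of 0.09 in MT-CO2 and 0.28 in MT-CO3, against a median SD of 0.58 over the 38 genes. A low spread was not particular to mitochondrial genes. In these libraries the SD was 0.44 in MT-ND5, and 0.09 and 0.21 in the nuclear genes COX7A2 and NDUFB1. MT-CO2 and MT-CO3 rose by 2.40 ± 0.43 and 2.24 ± 0.48 (SE; limma, adjusted p 0.00968 and 0.01). MT-ND5 (chrM:12337-14148), a proton-pumping subunit of complex I, was 1.76, 0.75 and 0.76 with Tau-WT, -0.54, -0.08 and -0.05 with Tau-K174Q, -0.96, -0.66 and -1.54 with Tau-S199E, while it was 1.04, 0.64 and -1.13 with the double construct. It fell by 2.14 (0.0136), although it lies on the same strand as MT-CO3, with 2347 bases between them.

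Complex V had 4 genes and all rose. ATP5F1B (chr12:56638175-56646068, minus strand), the catalytic beta subunit, was -0.67, -1.91 and -1.28 with Tau-WT, 0.38, 0.46 and 0.62 with Tau-K174Q, 0.31, 0.53 and 1.78 with Tau-S199E, while it was 0.07, -0.84 and 0.53 with the double construct. The Tau-K174Q libraries lay within the range of the Tau-S199E libraries, and both were above Tau-WT. ATP5MC3, a gene of the proton-carrying c ring, was -0.67, -1.57 and -0.75 with Tau-WT, 0.41, 0.08 and -0.12 with Tau-K174Q, 0.72, 1.23 and 1.996 with Tau-S199E, while it was -1.13, -0.17 and -0.01 with the double construct. ATP5PB, of the peripheral stalk, was -0.70, -1.44 and -0.79, then 0.63, 0.16 and 0.10, then 0.67, 0.33 and 2.30, and then -0.59, -1.03 and 0.34. The differences of Tau-S199E from Tau-WT were 2.16 for ATP5F1B, 2.31 for ATP5MC3 and 2.08 for ATP5PB (limma, adjusted p 0.0104, 0.00968 and 0.0138). The accessory subunit ATP5MD rose by 2.14 (0.0144).

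**Figure D4:**
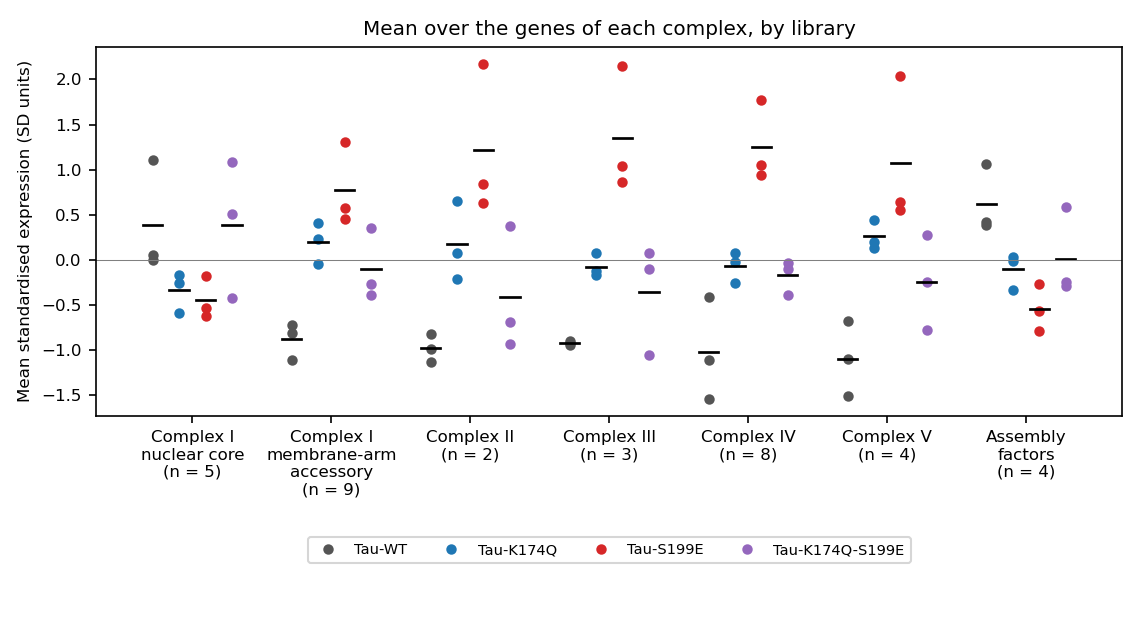
Mean standardised expression (SD units) over the genes of each class in each library (points) with the construct mean (line), the number of genes under each class, and without MT-ND5 and the 2 matrix-arm accessory subunits of complex I. Tau-S199E points lie above Tau-WT points in complexes II to V and in the membrane-arm accessory subunits. They lie below them in the nuclear core of complex I and in the 4 assembly factors of the name rule.

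Of the 4 assembly factors, which build the complexes without staying in them, 3 fell with Tau-S199E and 1 rose. SDHAF2 (chr11:61430042-61447529, plus strand), which attaches the flavin to complex II, was 1.14, 1.68 and 1.10 with Tau-WT, -0.84, -0.31 and -0.21 with Tau-K174Q, -0.79, -0.88 and -1.30 with Tau-S199E, while it was 1.17, -0.16 and -0.58 with the double construct. NDUFAF8, a complex I assembly factor, was 1.75, 0.78 and 0.97, then -0.65, -0.14 and 0.01, then -1.17, -0.40 and -1.39, and then 1.32, -0.23 and -0.84. In both, each single construct lay below every Tau-WT library. The falls with Tau-S199E were 2.30 ± 0.43 and 2.15 ± 0.56 (SE; limma, adjusted p 0.00979 and 0.013), so the factor of complex II fell where its subunits SDHB and SDHC rose.

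COX20, which helps to insert MT-CO2 into the membrane, was 2.11, 0.78 and 0.86 with Tau-WT, -0.65, -0.17 and -0.12 with Tau-K174Q, -0.60, -0.43 and -1.82 with Tau-S199E, while it was 0.10, 0.64 and -0.69 with the double construct. It was the 1 gene of the 4 whose double-construct libraries were all below Tau-WT, and it fell by 2.20 with Tau-S199E (limma, adjusted p 0.0109). COX17, a copper chaperone of complex IV, was -0.75, -1.56 and -1.36 with Tau-WT, 0.84, 0.60 and 0.47 with Tau-K174Q, 0.30, 0.63 and 1.37 with Tau-S199E, while it was -0.22, -1.24 and 0.94 with the double construct. It rose by 1.99 with Tau-S199E (0.0139), and the Tau-K174Q libraries lay within the Tau-S199E range.

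Against Tau-WT, Tau-K174Q gave 0 calls among the 38 genes and 0% of the table by limma with the variance of each gene. At an unadjusted p under 0.05, 19 of the 38 passed (16 higher and 3 lower), against 51.9% of the table (32.4% higher and 19.5% lower). The smallest adjusted p was 0.066. With limma's moderated variance 20 were called (15 higher, 5 lower; 59.9% of the table), and with the 6 libraries alone 15 (12 higher, 3 lower; 48.9% of the table). The number of calls thus depended on how the variance was estimated. The difference was above 0 in 28 genes and below in 10, against 52.8% and 47.2% of the table. The libraries did not overlap in 28 genes (21 higher, 7 lower), 73.7%, against 80.7% of the table (43.6% higher and 37.2% lower). This comparison shares its Tau-WT libraries with that of Tau-S199E, and its directions are tied to the selection of the table. The largest difference upward was that of NDUFC1, 2.12 (unadjusted p 0.00514), and downward that of SDHAF2, -1.76 (0.00359).

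Side by side, the difference from Tau-WT was 1.16 (K174Q) and 2.43 (S199E) for UQCRFS1, 0.92 and 2.14 for SDHB, 1.77 and 2.16 for ATP5F1B, and 0.38 and 2.15 for COX5B. The mean of Tau-K174Q lay between those of Tau-WT and Tau-S199E in 36 of 38 genes, against 84.4% of the table, the others being NDUFB6 and NDUFC1. Tau-S199E minus Tau-K174Q had a median of 0.83 over the 38 genes and -0.09 over the table. Tested directly, 0 of 38 were called (limma, 0.0597% of the table), with the smallest adjusted p 0.111. An unadjusted p under 0.05 was passed by 15 (14 higher with Tau-S199E and 1, NDUFA11, lower), against 16.1% of the table (9.37% higher and 6.68% lower). No setting tried gave a call. The libraries did not overlap in 22 genes, 18 of them higher with Tau-S199E (47.4%, against 17.7% of the table) and 4 lower (10.5%, against 18.6%). The largest difference was that of NDUFA3, 2.07 (unadjusted p 0.000462), whose Tau-K174Q libraries (-0.70, -0.16 and -0.81) lay near those of Tau-WT (-0.17, -1.44 and -0.42). All 15 nuclear genes of complexes II to V were above 0 in this difference, with a median of 1.19. Of the 38 genes, 26 were above 0 and 12 below, against 47.4% and 52.6% of the table. The deposited sign equalled that of this difference in 2 of the 38 genes and in 260 of the 1676. The directions of Tau-S199E minus Tau-K174Q are therefore tied to the selection of the table too.

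The median signed difference from Tau-WT over the 38 genes was 0.66 for the double construct, 0.93 for Tau-K174Q and 2.15 for Tau-S199E. These medians do not rank the constructs by distance from Tau-WT. In some genes, among them NDUFA3 and COX7C, the mean of Tau-K174Q was closer to that of Tau-WT than the mean of the double construct was. The deposited sign equals that of the interaction in 1676 of 1676 genes, so these medians are tied to how the table was selected. None of the 38 genes was called for the double construct against Tau-WT (limma, 0% of the table), nor in any setting tried. The smallest adjusted p was 0.533. At an unadjusted p under 0.05, 5 passed: NDUFB1 (1.15), COX7A2 (1.19) and ATP5F1B (1.204) higher, SDHAF2 (-1.16) and COX20 (-1.23) lower, against 7.58% of the table (3.94% higher and 3.64% lower). The libraries did not overlap in 6 genes (5 higher, 1 lower), 15.8% against 11.6% of the table (7.28% higher and 4.30% lower). The median difference was 0.66, against 0.20 over the table, and 31 were above 0 and 7 below, against 56.3% and 43.7% of the table. The deposited sign equalled that of this difference in 3 of the 38 genes and in 134 of the 1676. Directions of the double construct against Tau-WT are therefore tied to the selection of the table too. The mean of the double construct lay between Tau-WT and Tau-S199E in 35 genes (92.1%, against 91.8% of the table). The exceptions were NDUFS7, NDUFS8 and NDUFV1, all of the complex I core, at 0.22, 0.23 and 0.18 above Tau-WT, and each of these signs turned when some single library was left out.

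Against Tau-S199E, the double construct was lower in 28 genes and higher in 10, against 53.0% and 47.0% of the table. These directions are tied to the selection of the table. By limma 0 were called, against 0.119%. At an unadjusted p under 0.05, 26 passed (22 lower and 4 higher), 68.4% of these genes and 56.4% of the table, and the smallest adjusted p was 0.0644. The libraries did not overlap in 22 genes (18 lower, 4 higher), against 43.4% of the table (22.1% lower and 21.4% higher). The count turned on library 18 of the double construct: without it 29 of 38 were called (21 lower and 8 higher), against 78.5% of the table. With the moderated variance 27 were called (21 lower, 6 higher), against 68.8%. Library 18 was the lowest of the 3 double-construct libraries in 10 of the 10 genes lower with Tau-S199E and the highest in 19 of the 28 that were higher. Over the whole table it was the lowest in 702 of 790 such genes and the highest in 783 of 886. The genes with the smallest unadjusted p were NDUFA3 (-1.79, 0.00118), UQCRFS1 (-1.70, 0.00181) and ATP5MC3 (-1.75, 0.0035), and among those higher in the double construct NDUFA11 (1.85, 0.00566). MT-CO2, whose library 18 value (-0.30) was next to those of libraries 16 and 17, differed by -1.43 (0.0104).

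Against Tau-K174Q, the double construct gave 0 calls (limma; 0% of the table), and 1 gene, NDUFV1 (1.45), passed an unadjusted p under 0.05 (0.0457), against 8.23% of the table (3.76% higher and 4.47% lower). The interaction, which asks whether the effect of 1 substitution depends on the other, was called in 38 of 38 genes, 10 above 0 and 28 below, against 97.0% of the table. It ran from -2.91 in SDHC to 2.92 in NDUFV1. Since the sign of the deposited fold change equals that of the interaction in 1676 of 1676 genes, nothing about these genes is read from that count.

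**Figure D5:**
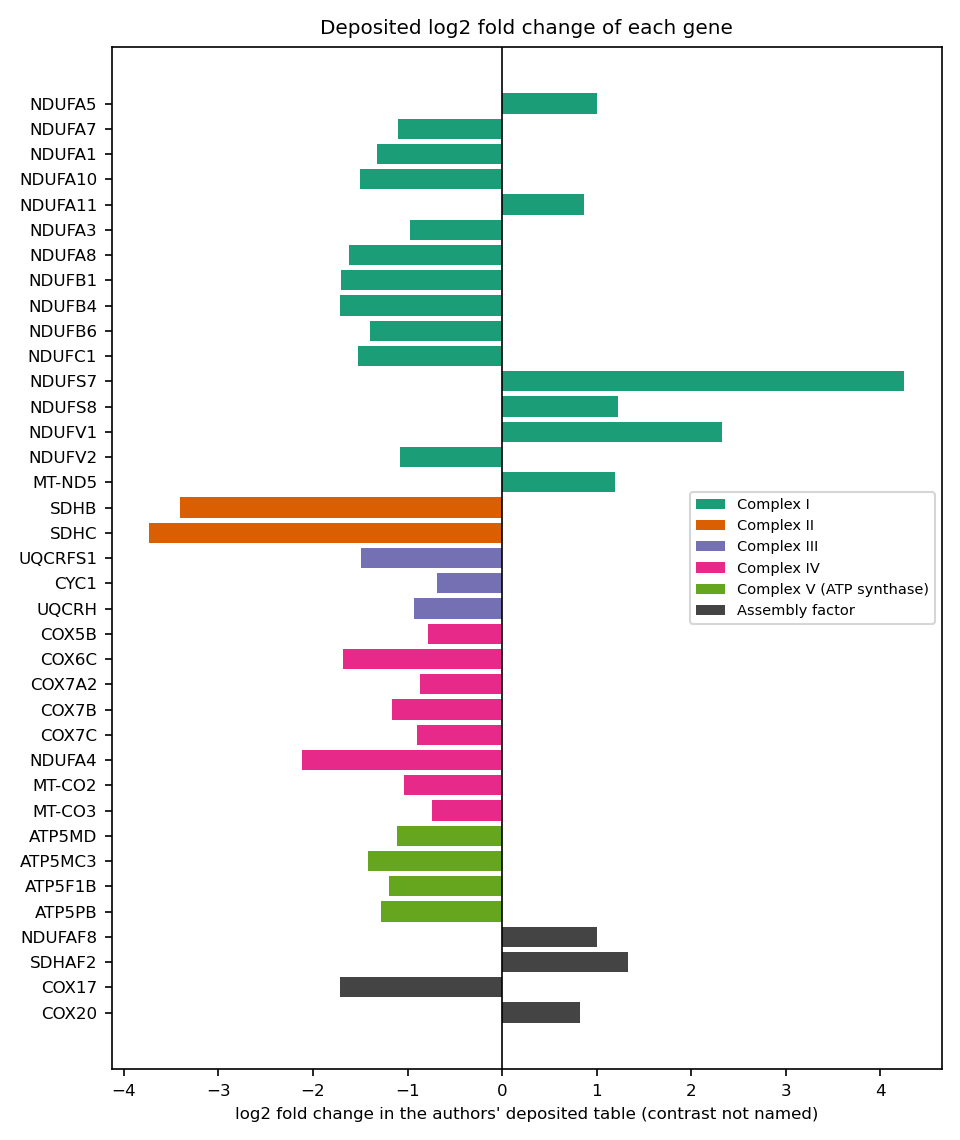
The log2 fold change of 37 of the 38 genes in the authors' deposited table (bars from 0, coloured by complex), for a contrast that its header does not name. The longest bars are NDUFS7 (4.25), SDHC (-3.73) and SDHB (-3.41).

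The deposited fold changes are on a log2 scale, for a contrast that the header does not name. They do not give the size of the differences between 2 constructs described above. In the authors' deposited table the log2 fold change of the 38 genes had a median size of 1.25, against 1.36 for all genes, and was negative in 28. In the authors' deposited table NDUFS7 had 4.25, NDUFV1 2.33, SDHC -3.73, SDHB -3.41 and NDUFA4 -2.12, the 5 genes with a size of 2 or more, which is 13.2% of these genes and 21.5% of the table. Both complex II genes were among them. The smallest was that of CYC1, -0.69 in the authors' deposited table. The deposited adjusted p ran from 0.000114 (UQCRFS1) to 0.0459 (NDUFB6) in the authors' deposited table. The authors' clusters 1 to 4 held 7, 3, 5 and 23 of the genes, so 60.5% were in cluster 4, against 31.8% of the table. Of these genes, those in clusters 3 and 4 were higher with Tau-S199E and those in clusters 1 and 2 lower. The cluster shares are thus not separate from the directions given above, which are tied to the selection of the table. Cluster 2 held NDUFS7, NDUFS8 and NDUFV1 alone of these genes.

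Other genes of the same pathways were counted from lists set beside the rule. Of 43 further assembly factors, 11 were in the table, and 8 rose and 1 fell with Tau-S199E (limma, adjusted p below 0.05). In this comparison 90.0% of the table was called (48.3% higher and 41.8% lower), so the counts of these lists are given as a description. OXA1L, the insertase that places subunits in the inner membrane, rose by 2.53, COA4 by 2.25 and ATPAF1, an ATP synthase assembly factor, by 2.24, and HIGD1A, a complex IV factor, by 2.23, whereas TTC19, of complex III, fell by 1.93. SCO1 (-1.32, adjusted p 0.0655) and FMC1 (1.17, 0.0601) were not called. Of 25 genes of the citric acid cycle and pyruvate dehydrogenase, 5 were in the table and all 5 rose, among them PDHB (2.25), DLAT (2.14), MDH2 (2.10) and SUCLA2 (1.84).

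Of 13 genes related to coenzyme Q, the lipid carrier between complexes I or II and III, 3 were in the table: COQ5 (2.21) and COQ10B (1.75) rose and COQ9 (-2.02) fell. Of 15 genes of ATP and phosphate exchange 5 were in the table. The phosphate carrier SLC25A3 (1.96), the ADP/ATP carrier SLC25A5 (1.56) and the channel VDAC2 (2.01) rose, while 2 fell, among them the ADP/ATP carrier SLC25A6 (-2.17). Of 34 regulators of mitochondrial gene expression 2 were in the table: the nuclear receptor ESRRA rose by 1.86 and FASTK fell by 2.19. Of 15 peroxide and superoxide defence genes 2 were in the table, with TXN rising by 2.04 and GPX4 falling by 2.07. None of the genes in these lists was called in the other comparisons of 2 constructs (limma), where 0 to 0.119% of the table was called.

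Some of these genes share sequence or position with others, and the sources used here do not say how reads were assigned between copies. GENCODE names at least 1 pseudogene after 23 of the 38 genes, 187 in all, and 0 of these were in the table. An annotated gene overlaps 15 of them on the same strand and 17 on the opposite strand. Overlapping genes that were themselves in the table were SMIM27 with NDUFB6, WDR77 with ATP5PB and HNRNPU with COX20, all on opposite strands. SMIM27 and WDR77 were higher with Tau-S199E, by 1.24 and 1.51, as were their neighbours, whereas HNRNPU was higher by 1.51 where COX20 fell. Whether reads of these pairs were kept apart by strand was not tested.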

How the data were processed

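The 12 libraries were made from polyadenylated RNA of SH-SY5Y cells, in triplicate per construct. Names in the submitters' processing notes are DESeq2, RSEM 1.2.31, STAR 2.5.3a and the build GRCh38, without role or order. The sources used here give no other step. The deposited library columns hold a score, standardised per gene by the authors to mean 0 and SD 1, as the values show. Per the file headers, the authors' fold change is a log2 value, and the deposited adjusted p-values lie below 0.05. Depth cannot be read from such values.

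Columns were assigned to constructs by name. They carry library numbers (1 to 3, 4 to 6, 10 to 12 and 16 to 18), not replicate numbers. All 1676 genes were fitted with limma 3.58.1 (R 4.3.3), 1 mean per construct, the residual variance of each gene, two-sided, with Benjamini-Hochberg adjustment and a threshold of 0.05, tested on simulated data. The design allowed for a count test, which the unit does not allow. Alternatives were moderated variance, the 6 libraries compared, an adjusted p of 0.01, each library left out, and, chosen after seeing the data, leaving out libraries 12 and 18. Coordinates and gene types come from GENCODE 29 (GRCh38), promoters from RefSeq (GRCh38.p14).

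Values in every library are given for the 3 genes of each complex, and of the assembly factors, with the smallest deposited adjusted p, for the mitochondrial genes and for genes against the common direction. Of each pathway list, up to 4 genes with the smallest p of Tau-S199E against Tau-WT were to be named. Some genes are counted but not reported here by name. For lists with up to 5 genes in the table others were added after their values were seen, as were TTC19, SCO1 and FMC1. The genes and lists were chosen with earlier results of these data known, and subunit roles and promoter letters after seeing the data.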

Additional observations from a re-analysis of the deposited data

Results flagged for a closer look

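The effect of K174Q differed between tau with S199E and tau without it in all 38 genes (the interaction of both substitutions, limma, adjusted p below 0.05). The whole table had 97.0% of genes past that threshold and its selection is tied to this contrast, so the values are a description. At an adjusted p below 0.01 none passed, nor did any gene of the table, whereas 38 passed an unadjusted p under 0.05. Each value is the difference between Tau-K174Q-S199E and Tau-S199E minus the difference between Tau-K174Q and Tau-WT, in SD units, and is given for 37 of the genes. In complex I, the difference was below 0 in NDUFA7 (-2.60), NDUFA1 (-2.70), NDUFA10 (-2.54), NDUFA3 (-1.91), NDUFA8 (-2.83), NDUFB1 (-2.70), NDUFB4 (-2.86), NDUFB6 (-2.42), NDUFC1 (-2.46) and NDUFV2 (-2.45). In complex I, the difference was above 0 in NDUFA5 (2.26), NDUFA11 (2.79), NDUFS7 (2.70), NDUFS8 (2.54), NDUFV1 (2.92) and MT-ND5 (2.55). In complex II, the difference was below 0 in SDHB (-2.66) and SDHC (-2.91). In complex III, the difference was below 0 in UQCRFS1 (-2.86), CYC1 (-2.23) and UQCRH (-2.58). In complex IV, the difference was below 0 in COX5B (-2.14), COX6C (-2.80), COX7A2 (-2.08), COX7B (-2.38), COX7C (-1.95), NDUFA4 (-2.77), MT-CO2 (-2.73) and MT-CO3 (-2.15). In complex V, the difference was below 0 in ATP5MD (-2.32), ATP5MC3 (-2.88), ATP5F1B (-2.73) and ATP5PB (-2.80). Among the assembly factors, the difference was below 0 in COX17 (-2.80). Among the assembly factors, the difference was above 0 in NDUFAF8 (2.49), SDHAF2 (2.90) and COX20 (2.52). No explanation of these values was tested.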

How the results depend on the processing

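No paired analysis was possible because the columns carry library numbers and not the replicate numbers of the labels. Other count scalings, pseudocounts and filters on low values were not run, since standardised values allow none. Among the 38 genes, an adjusted p threshold of 0.01 (limma) left 9 calls for Tau-S199E against Tau-WT (8 higher, 1 lower; 11.3% of the table) and 0 for the interaction (0% of the table). The moderated variance gave 20 calls for Tau-K174Q against Tau-WT (59.9% of the table) and 27 for Tau-K174Q-S199E against Tau-S199E (68.8%), and the 6 libraries alone gave 15 for the former (48.9%). Without libraries 12 and 18 the calls were 20 for Tau-K174Q against Tau-WT (58.5% of the table), 16 for Tau-K174Q-S199E against Tau-S199E (43.6%) and 6 for Tau-K174Q-S199E against Tau-K174Q (26.9%). Leaving out 1 library gave 30 to 35 calls for Tau-S199E against Tau-WT (49.7% to 83.7% of the table, both lowest without library 12), 32 to 38 for the interaction (76.0% to 97.1%), 0 to 29 for Tau-K174Q-S199E against Tau-S199E (0 to 78.5%, both highest without library 18) and 0 to 1 for Tau-K174Q-S199E against Tau-K174Q (0 to 8.47%). The cause of these shifts was not tested. The other comparisons kept 0 calls when 1 library was left out.

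Gene by gene, for Tau-S199E against Tau-WT, 313 of the values kept their direction and side of the threshold, 26 (6 genes, among them NDUFA5, NDUFA7, NDUFB6, NDUFC1 and NDUFV1) lost the call and 3 (NDUFS7 and NDUFS8) gained it. None turned its direction. In this comparison the moderated variance called 98.4% of the table and the 6 libraries alone 72.0%. For Tau-K174Q-S199E against Tau-WT, where no gene was called, 13 values of 6 genes changed sign. They were NDUFA11 (0.19 without library 18, alone or with 12; -0.63 to 0.19 over single libraries), NDUFS7 (-0.16 without Tau-WT library 2, -0.27 without 16; up to 0.86), NDUFS8 (-0.076 without Tau-WT library 1, -0.61 without 16; up to 0.95), NDUFV1 (-0.046, -0.095, -0.032 and -0.30 without libraries 2, 3, 16 and 17; up to 0.85), UQCRH (-0.051 without library 18, alone or with 12; up to 0.70) and COX5B (-0.047 without library 17; up to 0.77). Depth is unknown, so its limit on these values cannot be stated.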
